A study of Mus musculus with 15 samples.

Results

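The genes described here are 10 repressors and output factors of the circadian clock: Nr1d1, Nr1d2, Per1, Per2, Per3, Cry1, Cry2, Dbp, Tef and Hlf. They were chosen by symbol, as every probe set that the array annotation pairs with exactly 1 of these genes, and all 10 were measured, on 18 of 20380 such probe sets and as 10 of 12393 genes. None of their probe sets was shared with another gene. Measurements came from whole hearts of mice in a study of the heart in sepsis, with 3 arrays in each of 5 groups. In C57/BL6 wild-type mice the groups were septic hearts labelled Max Dep, septic hearts labelled Min Dep and sham-operated hearts. In congenic B6.129P2-Nos2tm1Lau/J mice, which lack the inducible nitric oxide synthase gene Nos2, the groups were septic and sham-operated hearts. Septic mice underwent caecal ligation and perforation (CLP): the caecum was tied off and pierced, which spills gut bacteria into the abdomen. Sham mice had the caecum handled only. Mice of all groups received isoflurane, buprenorphine and saline, and hearts were taken 48 h after surgery under ketamine and xylazine, after a catheter measurement of contractility. The labels do not say what Max Dep and Min Dep measure, and they give no hour of the day at which hearts were taken. Nothing in the labels says whether mice of a group shared a litter or a day of surgery, so the p-values measure the spread between these arrays.

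The circadian clock is a loop of transcription factors that runs in nearly every cell, cardiomyocytes included. CLOCK or its relative NPAS2 pairs with BMAL1, the product of Arntl, and activates genes through E-boxes in their promoters. The period proteins (Per1, Per2, Per3) and cryptochromes (Cry1, Cry2) are among those targets and return to the nucleus to repress the pair. The nuclear receptors REV-ERB alpha and beta (Nr1d1, Nr1d2) form a further loop and repress Arntl through ROR elements. Dbp, Tef and Hlf encode related leucine zipper activators that pass the rhythm on to other genes through D-boxes, where the repressor encoded by Nfil3 competes with them. The abundance of most of these transcripts swings widely over the day in mouse heart and other tissues, with Arntl and Cry1 peaking at other hours than Nr1d1 and Dbp. Per1 also responds directly to glucocorticoids.

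Promoter windows were searched for the motifs of the loop. Those of 4 genes are shown, for the clearest group separation in wild type (Nr1d1 and Cry1) or as examples of the motifs (Cry1, Per1 and Per3). RefSeq windows of 300 bases around the start of transcription (GRCm38.p6) were given for 9 of the 10 genes, in 11 windows; Per2 had no entry. Both strands were searched for the E-box CACGTG, the D-boxes TTATGTAA and TTACGTAA, the ROR element TAGGTCA and the cAMP response element TGACGTCA, and capitals below mark each match. No match overlapped another. Positions count the first base of the match from the start of transcription. Nr1d1 (minus strand, chr11:98775328-98775627) held none of these letters. Cry1 (minus strand, chr10:85185005-85185304) held an E-box at -60. Per1 (plus strand, chr11:69098699-69098998) held an E-box at -166, and its other window, not shown, held none of these letters. Per3 (minus strand, chr4:151044616-151044915) held 2 D-boxes, at -205 and -158.
Nr1d1: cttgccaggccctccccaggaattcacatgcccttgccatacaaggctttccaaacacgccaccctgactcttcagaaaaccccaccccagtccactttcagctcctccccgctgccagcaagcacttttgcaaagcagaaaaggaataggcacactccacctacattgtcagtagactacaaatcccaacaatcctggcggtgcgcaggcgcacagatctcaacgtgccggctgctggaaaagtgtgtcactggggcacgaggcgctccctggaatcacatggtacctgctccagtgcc
Cry1: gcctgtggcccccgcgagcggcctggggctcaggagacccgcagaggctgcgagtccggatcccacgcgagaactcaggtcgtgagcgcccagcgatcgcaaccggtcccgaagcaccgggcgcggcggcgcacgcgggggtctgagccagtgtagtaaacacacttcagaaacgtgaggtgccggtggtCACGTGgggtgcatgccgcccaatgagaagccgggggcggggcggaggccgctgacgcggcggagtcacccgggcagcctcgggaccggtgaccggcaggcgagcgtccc
Per1: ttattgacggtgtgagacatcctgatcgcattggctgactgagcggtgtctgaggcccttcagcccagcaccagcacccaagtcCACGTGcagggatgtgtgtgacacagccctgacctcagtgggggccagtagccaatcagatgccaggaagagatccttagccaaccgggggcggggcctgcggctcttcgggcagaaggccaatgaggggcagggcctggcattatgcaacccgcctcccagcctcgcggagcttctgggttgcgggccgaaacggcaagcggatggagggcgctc
Per3: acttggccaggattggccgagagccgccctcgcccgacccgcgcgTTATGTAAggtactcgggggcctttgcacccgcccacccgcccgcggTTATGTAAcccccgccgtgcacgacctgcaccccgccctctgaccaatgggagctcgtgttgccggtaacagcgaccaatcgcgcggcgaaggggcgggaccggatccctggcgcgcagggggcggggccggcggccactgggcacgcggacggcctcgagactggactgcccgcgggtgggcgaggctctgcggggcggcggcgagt
Tef held an E-box in each of its 2 windows, at -127 and -138, and Hlf a cAMP response element at -9. The E-box was thus found in 4 of the 11 windows (3 genes), against 7.15% of all 32851 windows in the table. A D-box was found in 1 of 11, that of Per3, against 1.06% of windows. The cAMP response element was also found in 1 of 11, against 1.79% of windows. The ROR element was in 0 of 11, against 2.61% of windows. These are matches of letters in a short window and not measured binding sites.

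Values were deposited in 2 tables that are scaled differently, so levels could not be compared between genotypes, and no order of levels between genes could be given. In the wild-type table every probe set was brought to 1 common spread (an SD of 1.0 across its 9 arrays), with a further scaling of each array, and differences are in these standardised units. Knockout values behave as log differences around a middle array of each probe set, with the log base not given. Of the 18 probe sets of the clock genes, 14 had 1 knockout array at exactly 0, with other arrays on both sides in all 14, so that 0 marks a middle value and not an absent signal. Knockout CLP replicate 1 followed the other columns more closely than any other array (R squared of 0.746 on the other 5, against 0.0639 to 0.569). It was therefore left out of the knockout tests, where it is given as a value. Other arrays stood apart in the clock genes themselves. Wild-type Min Dep replicate 2 held the lowest value of 6 of the 10 genes, and wild-type sham replicate 3 and knockout sham replicate 3 each held the highest value of 6. Values without these arrays are given below for the counts and medians of the members and for the genes they moved most.

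In wild-type hearts Nr1d1 stood lower after CLP than after sham surgery and Cry1 stood higher, and for both genes no septic array overlapped a sham array. The other 8 genes were closer together or more scattered. No member passed an adjusted p of 0.05 in limma as fitted on gene means (0 of 10, against 0.718% of 12393 genes, or 89 genes), and 2 of 10 had an unadjusted p below 0.05, against 18.6% of genes. With moderated statistics 3 of 10 had one. Nr1d1 was the nearest to the threshold.

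**Figure D1:**
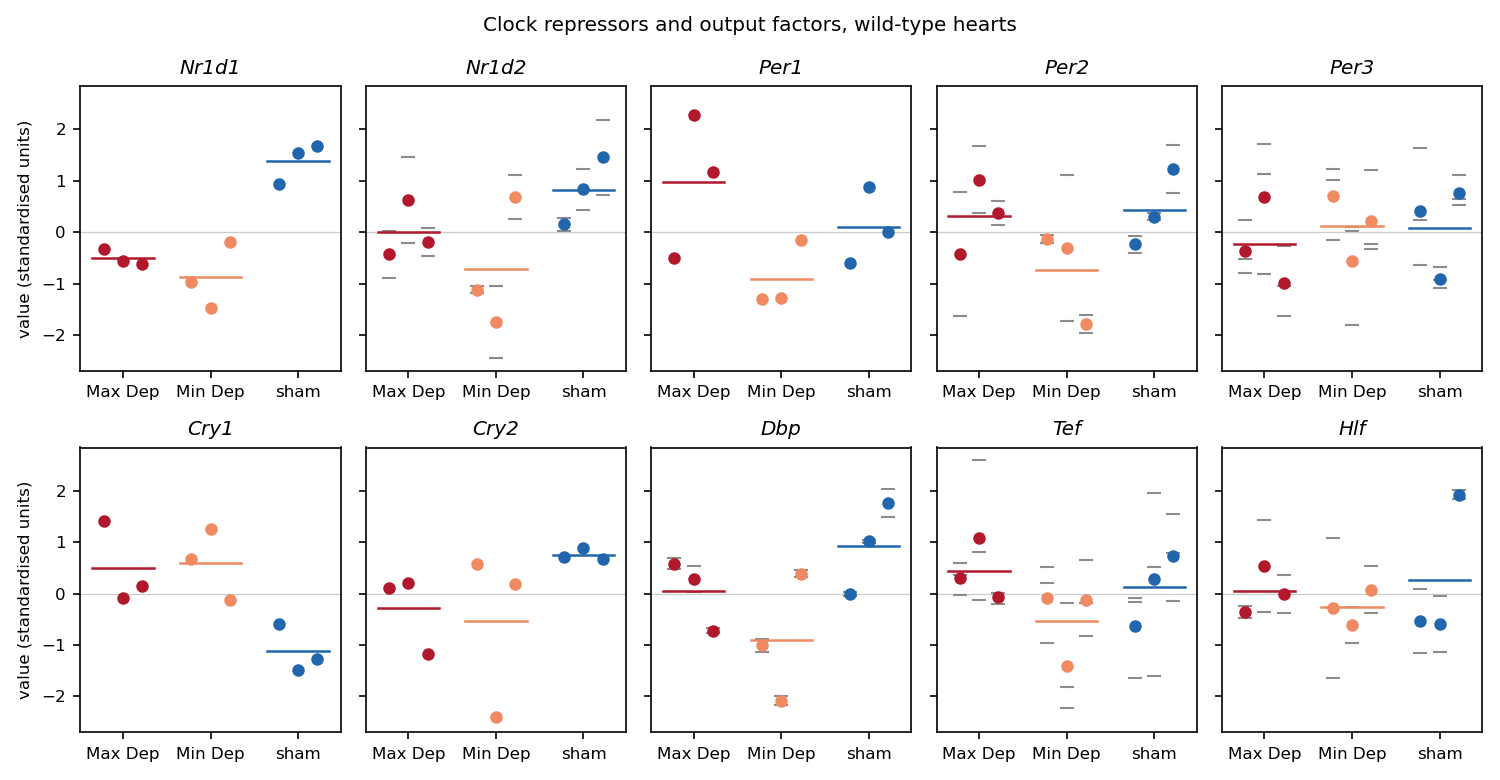
Values of the 10 clock genes in each wild-type array, in standardised units. Filled circles are arrays, horizontal lines are group means, and grey ticks are single probe sets of genes with more than 1. For Nr1d1 the 6 septic arrays lie between -1.48 and -0.19, all below the sham arrays, and for Cry1 they lie between -0.11 and 1.41, all above them.

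Nr1d1 encodes REV-ERB alpha. Its single probe set was at -0.32, -0.56 and -0.62 in Max Dep hearts, at -0.96, -1.48 and -0.19 in Min Dep hearts and at 0.94, 1.54 and 1.68 in sham hearts. Every septic heart, in both septic groups, lay more than 1 standardised unit below the lowest sham heart. The CLP difference was -2.07 ± 0.32 (SE; 95% interval -2.85 to -1.30; adjusted p = 0.0543, limma on gene means). Tested as a probe set among all 22626, where 2.57% passed, the same difference had an adjusted p of 0.0399. Undoing the scaling of each array gave -1.90 ± 0.25 with an adjusted p of 0.0408. Against sham, Max Dep hearts differed by -1.88 ± 0.37 (adjusted p = 0.1, limma) and Min Dep hearts by -2.26 ± 0.37 (adjusted p = 0.0763, limma). Max Dep and Min Dep hearts differed from each other by 0.38 (95% interval -0.51 to 1.27). Leaving out 1 array at a time kept the CLP difference between -2.30 and -1.92, with adjusted p from 0.0511 to 0.186.

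Nr1d2, the gene of REV-ERB beta, was more scattered. Its gene mean was at -0.43, 0.63 and -0.19 in Max Dep hearts, at -1.12, -1.75 and 0.69 in Min Dep hearts and at 0.15, 0.84 and 1.46 in sham hearts. Septic and sham hearts overlapped through Max Dep replicate 2 and Min Dep replicate 3. The CLP difference was -1.18 ± 0.62 (SE; adjusted p = 0.382, limma), and -0.86 ± 0.73 without sham replicate 3. Its 2 probe sets disagreed in size: 1416959_at differed by -1.82 ± 0.53 (adjusted p = 0.13 over probe sets, limma) with no overlap between septic and sham hearts, and 1416958_at by -0.53 ± 0.82 with overlap.

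The cryptochromes lay on opposite sides of sham. Cry1, a strong repressor of the CLOCK and BMAL1 pair, was at 1.41, -0.08 and 0.15 in Max Dep hearts, at 0.67, 1.25 and -0.11 in Min Dep hearts and at -0.60, -1.48 and -1.27 in sham hearts. All 6 septic hearts were above all 3 sham hearts, and Cry1 was the only member with a difference above 0. The CLP difference was 1.66 ± 0.47 (SE; 95% interval 0.51 to 2.81; adjusted p = 0.145, limma), and it stayed between 1.43 and 1.92 with 1 array left out. Cry2, the other cryptochrome, was at 0.10, 0.21 and -1.18 in Max Dep hearts, at 0.58, -2.39 and 0.20 in Min Dep hearts and at 0.71, 0.88 and 0.68 in sham hearts. The sham hearts lay close together and above every septic heart, and Min Dep replicate 1, at 0.58, came closest to them. The Cry2 difference was -1.17 ± 0.73 (adjusted p = 0.466, limma), and -0.70 ± 0.38 without Min Dep replicate 2.

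The period genes gave no separation between septic and sham hearts. Per1 was at -0.50, 2.28 and 1.16 in Max Dep hearts, at -1.30, -1.28 and -0.16 in Min Dep hearts and at -0.59, 0.87 and -0.00 in sham hearts. The septic hearts therefore lay on both sides of sham, and the CLP difference was -0.06 ± 0.70 (95% interval -1.77 to 1.65). Per2 was at -0.43, 1.02 and 0.37 in Max Dep hearts, at -0.13, -0.31 and -1.79 in Min Dep hearts and at -0.24, 0.30 and 1.23 in sham hearts, a difference of -0.64 ± 0.56, or -0.24 ± 0.62 without sham replicate 3. Per3, whose part in the mouse clock is smaller, differed by -0.14 ± 0.56, with values from -0.98 to 0.70 in the 6 septic hearts and from -0.90 to 0.76 in sham hearts. Its 3 probe sets had the same sign in only 3 of the 9 arrays.

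Among the output factors Dbp, the member with the best agreement between probe sets, showed the largest difference as a gene mean. Its gene mean was at 0.59, 0.28 and -0.72 in Max Dep hearts, at -1.01, -2.08 and 0.38 in Min Dep hearts and at -0.01, 1.02 and 1.76 in sham hearts. Min Dep replicates 1 and 2 and Max Dep replicate 3 were below all sham hearts, and the other 3 septic hearts lay between sham replicates 1 and 2. The CLP difference was -1.35 ± 0.68 (SE; adjusted p = 0.359, limma), -1.05 ± 0.61 without Min Dep replicate 2 and -0.93 ± 0.78 without sham replicate 3. In Min Dep hearts alone Dbp differed from sham by -1.82 ± 0.79 (adjusted p = 0.326, limma), or by -1.23 ± 0.76 without Min Dep replicate 2. Its 2 probe sets were never more than 0.54 apart. Tef differed by -0.18 ± 0.48 and Hlf by -0.37 ± 0.63. Hlf in sham hearts was set by 1 array, at -0.54, -0.59 and 1.93, and without sham replicate 3 its difference was 0.46. The 3 probe sets of Tef agreed in sign in only 2 of 9 arrays and were up to 3.56 apart, so its gene mean averages unlike signals. Their CLP differences were -1.69 ± 0.55 (1450184_s_at, adjusted p = 0.166 over probe sets, limma), 0.17 ± 0.87 (1424175_at) and 0.99 ± 0.70 (1438033_at). In Min Dep hearts 1450184_s_at differed from sham by -2.13 ± 0.64 without overlap (adjusted p = 0.184 over probe sets, limma), and the other Tef probe sets overlapped.

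Counted together, 9 of the 10 members had a CLP difference below 0, against 49.2% of all genes, and the median difference of the members was -0.51, against 0.02 for all genes. In 2 of the 10, Nr1d1 and Cry2, all septic hearts were below all sham hearts, against 6.11% of genes, and in 1, Cry1, all were above, against 5.89% of genes. Without sham replicate 3 the count below 0 was 6 of 10 and the median -0.174, and without Min Dep replicate 2 they were 6 of 10 and -0.495. Most of the small differences did not hold their sign. The Gapdh and Actb control probe sets at the 5′ end minus those at the 3′ end were used as a rough measure of RNA integrity. Each probe set is standardised in this table, so the measure is not a ratio of signals. It lay between -1.85 and 0.53 in septic hearts and between 0.39 and 1.76 in sham hearts. With that measure as a covariate 4 of the 10 members (Nr1d1, Nr1d2, Cry2 and Dbp) had a difference below 0, and Nr1d1 itself was at -2.06 ± 0.47 (adjusted p = 0.252, limma).

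Each septic group was also set against the same 3 sham hearts. In Max Dep hearts 0 of 10 members passed (against 0.452% of genes, limma), 2 of 10 had an unadjusted p below 0.05 (against 16.7%), and 7 of 10 had a difference below 0 (against 53.2%), with a median of -0.26. That count was 4 of 10 and the median 0.16 without sham replicate 3, and with the 5′ minus 3′ covariate they were 4 of 10 and 0.84. In Min Dep hearts 0 of 10 passed (against 0.0565%), 2 of 10 had an unadjusted p below 0.05 (against 16.4%), and 8 of 10 had a difference below 0 (against 45.5%), with a median of -1.09, or -0.60 without Min Dep replicate 2. In both septic groups Nr1d1 and Cry2 lay below all sham hearts and Cry1 above them. As 2 lower genes and 1 higher gene of 10, these counts stand against 12.7% and 13.8% of genes in Max Dep hearts and against 12.4% and 10.9% in Min Dep hearts.

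Max Dep against Min Dep hearts asked whether the labelled subgroups of septic hearts differed in the clock. Of the 10 members, 8 had a difference above 0, that is toward higher values in Max Dep hearts, with a median difference of 0.55 against -0.08 for all genes, of which 53.3% were lower. Without Min Dep replicate 2 the members' median was 0.22. None passed (0 of 10, against 0.0% of genes, limma), and none had an unadjusted p below 0.05, against 9.81% of genes, or 1 of 10 with moderated statistics. Tef was the only member without overlap, at 0.30, 1.09 and -0.06 in Max Dep hearts and at -0.08, -1.41 and -0.12 in Min Dep hearts, where 7.89% of genes stood higher in this way. Its margin was 0.02 at the closest pair, and its difference was 0.98 ± 0.56 (adjusted p = 0.589, limma). Taken singly, each Tef probe set overlapped between the septic groups, so this separation holds for the gene mean only.

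Per1 had the largest difference of the members between the septic groups, 1.90 ± 0.81 standardised units higher in Max Dep hearts (SE; 95% interval -0.08 to 3.87; adjusted p = 0.517, limma). Max Dep replicates 2 and 3 were above every Min Dep heart, and Max Dep replicate 1 was not. Without Max Dep replicate 1 the Per1 difference was 2.64 ± 0.65, and without Max Dep replicate 2 it was 1.25 ± 0.75. Per2 differed by 1.06 ± 0.65 as a gene mean. Its probe set 1417602_at was at 0.78, 1.67 and 0.61 in Max Dep hearts, at -0.05, -1.73 and -1.97 in Min Dep hearts and at -0.41, 0.37 and 0.76 in sham hearts, a difference of 2.27 ± 0.63 between the septic groups (adjusted p = 0.413 over probe sets, limma). In 9.07% of all probe sets the Max Dep hearts were higher without overlap, as here. The other Per2 probe set, 1417603_at, differed by -0.14 ± 0.94. Dbp differed by 0.95 ± 0.79 and Nr1d2 by 0.73 ± 0.72, or by 0.36 and 0.22 without Min Dep replicate 2. Per3 and Cry1 were the 2 members with a difference below 0, at -0.34 ± 0.65 and -0.11 ± 0.54. Per3 probe set 1421086_at was lower in Max Dep hearts without overlap, at -1.15 ± 0.63 (adjusted p = 0.576 over probe sets, limma). The other Per3 probe sets overlapped, at 0.81 ± 1.02 (1421087_at) and -0.68 ± 0.85 (1460662_at).

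Per1 is also on a list of 10 glucocorticoid-responsive genes, and whether glucocorticoids had a part in its difference was not tested. Tsc22d3 and Klf9 of that list are also among the clock-controlled outputs described below. In 10 of 10 genes, Per1 included, Max Dep hearts were higher than Min Dep hearts, with a median difference of 1.46. Of all genes 53.3% were lower. None of the list passed, and 5 of 10 had an unadjusted p below 0.05, against 9.81% of genes. Sgk1, a kinase that regulates ion channels, was at 0.24, 1.02 and 1.55 in Max Dep hearts, at -1.86, -1.29 and -0.76 in Min Dep hearts and at 0.27, 0.40 and 0.84 in sham hearts. Tsc22d3, an anti-inflammatory leucine zipper gene, was at -0.41, 0.72 and 1.09 in Max Dep hearts, at -1.08, -0.87 and -1.61 in Min Dep hearts and at 0.57, 0.87 and 0.86 in sham hearts. In both genes Min Dep hearts lay below the other groups. The differences between the septic groups were 2.24 ± 0.43 for Sgk1 (adjusted p = 0.313, limma) and 1.65 ± 0.42 for Tsc22d3 (adjusted p = 0.392, limma). In knockout hearts the list was split, with 6 of 10 CLP differences below 0, Per1 among them, and 4 above.

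**Figure D2:**
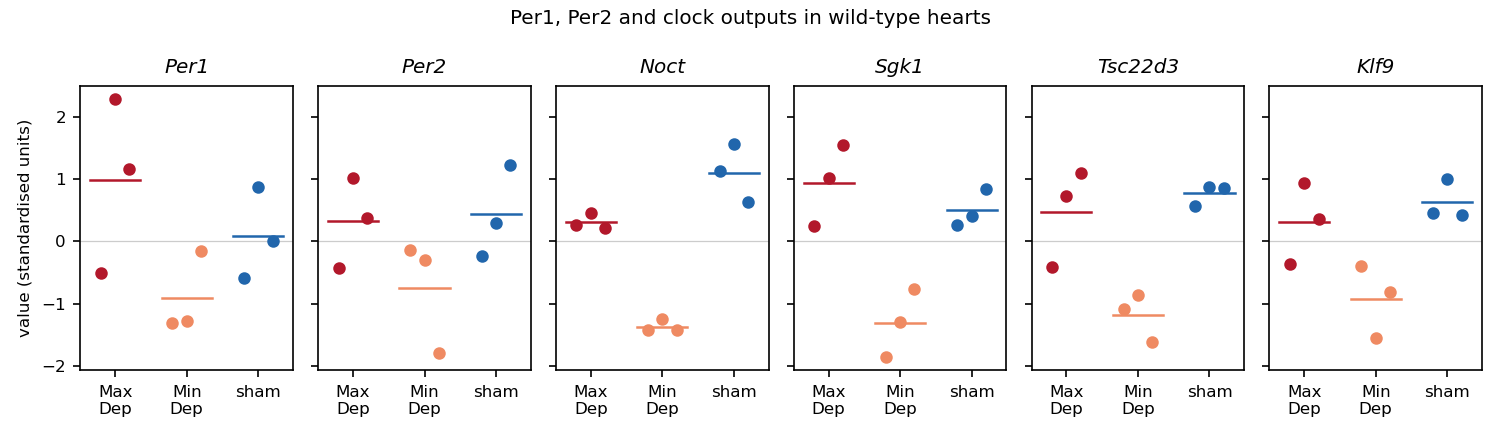
Per1, Per2 and 4 genes that are clock outputs or respond to glucocorticoids in each wild-type array, in standardised units. Circles are arrays and lines are group means. The 3 Min Dep arrays of Noct, Sgk1, Tsc22d3 and Klf9 lie below all Max Dep and sham arrays, and those of Per1 and Per2 overlap both groups.

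In Nos2 knockout hearts most members stood lower after CLP than after sham surgery. As gene means, 6 of 10 (Nr1d1, Per1, Per2, Cry2, Tef and Hlf) had both septic arrays of the test below all 3 sham arrays, against 14.0% of genes. Some probe sets of Tef and Hlf overlapped, as given below. The count was also 6 with CLP replicate 1 included, against 12.7%. That array followed the other columns, so counts and p-values that include it are not an independent repeat. No member passed an adjusted p of 0.05 (0 of 10, against 0.0% of genes, limma with moderated statistics). An unadjusted p below 0.05 was reached by 6 of 10, all lower, where 6.08% of genes were, and by 0 of 10 with unmoderated statistics. With 1 array left out that count lay between 3 and 7 of 10, and it was 3 without CLP replicate 3, sham replicate 1 or sham replicate 3. The 5′ minus 3′ measure lay between -2.06 and -0.78 in CLP hearts and between -1.97 and 0.98 in sham hearts, and with it as a covariate 2 of 10 reached an unadjusted p below 0.05. The median difference of the members was -3.18, against 0.03 for all genes, and 9 of 10 differences were below 0, against 48.5% of genes. Without sham replicate 3 the median was -2.31 with 9 of 10 below 0, and without CLP replicate 2 it was -2.14 with 7 of 10. Without sham replicate 2 the median was -4.11 with 9 of 10 below 0.

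**Figure D3:**
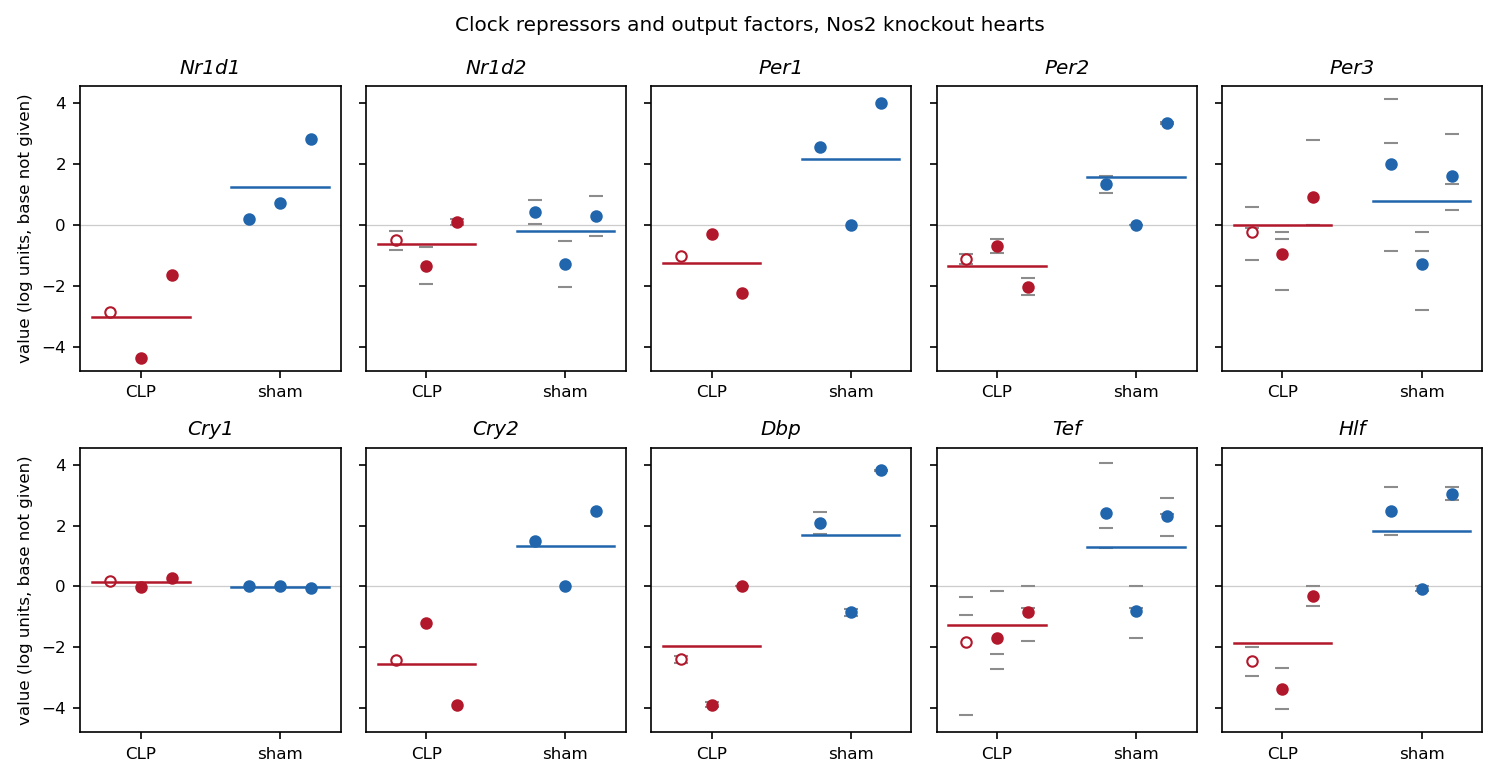
Values of the 10 clock genes in each knockout array, in log units of unstated base. Circles are arrays, grey ticks single probe sets and lines group means; the open circle is CLP replicate 1, which enters neither the mean nor the test. Sham arrays spread over more than 2 units in most genes, and sham replicate 2 lies near or below 0 in all but Nr1d1.

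Nr1d1 had the largest difference of the 10 in knockout hearts. It was at -2.87 (replicate 1, not tested), -4.37 and -1.66 in CLP hearts and at 0.21, 0.72 and 2.82 in sham hearts. The closest septic and sham hearts were 1.87 log units apart, the widest margin of the members. The difference was -4.26 ± 1.06 log units (SE; 95% interval -6.82 to -1.71; adjusted p = 0.191, limma), and -4.21 ± 0.89 (adjusted p = 0.0656) over all 6 arrays, where 2.38% of genes passed. With the 5′ minus 3′ covariate it was -3.17 ± 0.84. Nr1d2 was at -0.50 (not tested), -1.33 and 0.09 in CLP hearts and at 0.43, -1.29 and 0.30 in sham hearts, which overlapped. Its difference was -0.43 ± 0.72, and 0.28 without CLP replicate 2.

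Cry2 differed by -3.86 ± 1.01 (adjusted p = 0.205, limma), with -2.40 (not tested), -1.19 and -3.88 in CLP hearts and 1.50, 0.00 and 2.48 in sham hearts. Cry1 had the narrowest range of the members, with values from -0.03 to 0.29 in CLP hearts and from -0.05 to 0.02 in sham hearts. Its difference was 0.14 ± 0.40 (95% interval -0.82 to 1.11). Per1 was at -1.03 (not tested), -0.30 and -2.22 in CLP hearts and at 2.55, 0.00 and 3.99 in sham hearts, a difference of -3.44 ± 1.21 (adjusted p = 0.329, limma). Per2 was at -1.11 (not tested), -0.68 and -2.03 in CLP hearts and at 1.34, 0.00 and 3.36 in sham hearts, a difference of -2.92 ± 1.01. In Per1, Per2 and Cry2, CLP replicate 3 was the lowest array and sham replicate 3 the highest. Per3 differed by -0.78 ± 1.10 with overlap, or by 0.16 without CLP replicate 2, and its probe sets were up to 4.98 apart in 1 array.

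Dbp and Hlf were lowest in another septic heart, CLP replicate 2. Dbp was at -2.40 (not tested), -3.88 and 0.00 in CLP hearts and at 2.08, -0.85 and 3.81 in sham hearts, a difference of -3.62 ± 1.60 (adjusted p = 0.453, limma). The groups overlapped, since CLP replicate 3 was above sham replicate 2. Hlf was at -2.46 (not tested), -3.36 and -0.32 in CLP hearts and at 2.47, -0.07 and 3.05 in sham hearts, a difference of -3.66 ± 1.21 (adjusted p = 0.302, limma). Tef was at -1.84 (not tested), -1.70 and -0.84 in CLP hearts and at 2.41, -0.80 and 2.32 in sham hearts, a difference of -2.58 ± 1.03. Only 0.04 log units separated the closest septic and sham hearts in Tef. Taken singly, Tef probe sets 1424175_at (-2.10 ± 1.09) and 1450184_s_at (-1.48 ± 1.34) and Hlf probe set 1434736_at (-4.14 ± 1.53) overlapped. Tef 1438033_at (-4.16 ± 1.17) and Hlf 1434735_at (-3.17 ± 1.01) did not. Single arrays moved these sizes: without CLP replicate 2 the Dbp difference was -1.68, and without CLP replicate 3 it was -5.56. The Hlf difference was -2.14 without CLP replicate 2, and the Cry2 difference was -2.52 without CLP replicate 3. Nr1d1 lay between -5.62 and -2.91 with 1 array left out. Without sham replicate 3 the differences were -3.48 for Nr1d1, -3.28 for Cry2, -2.54 for Per1, -2.02 for Per2, -2.55 for Dbp, -2.08 for Tef and -3.04 for Hlf.

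**Figure D4:**
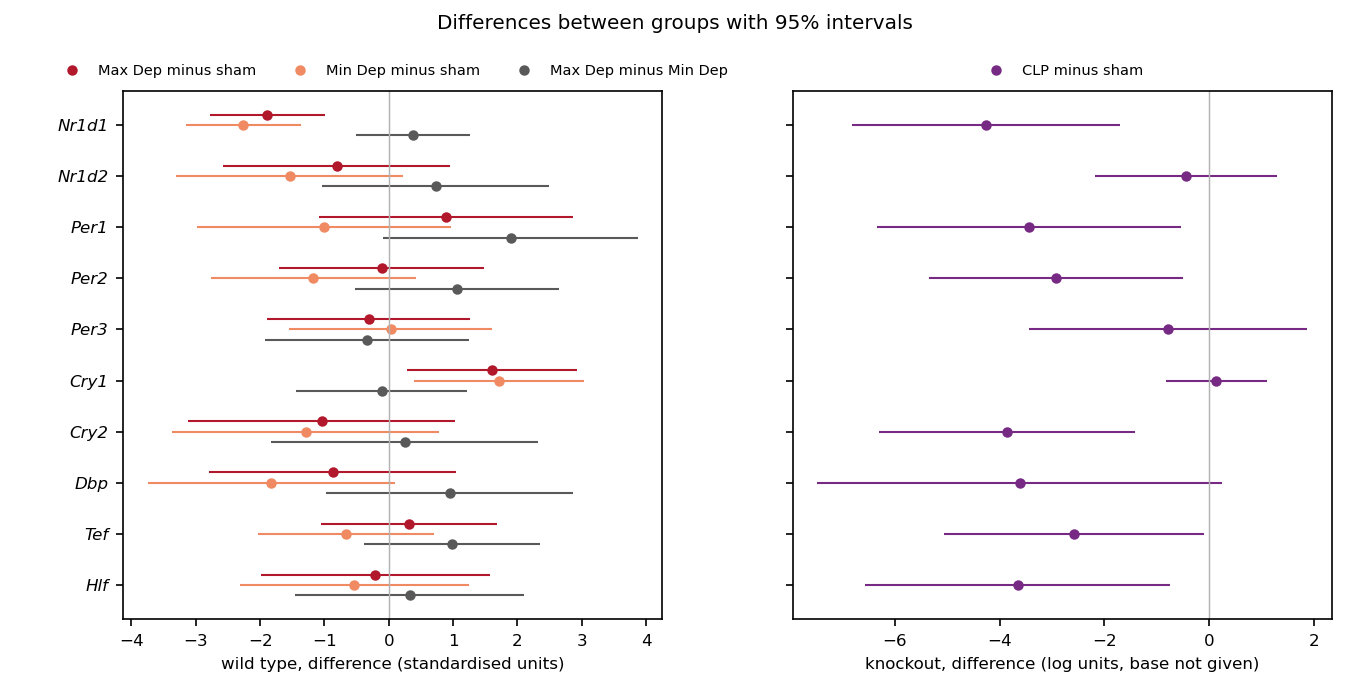
Differences between groups for the 10 clock genes with 95% intervals, in wild-type hearts (left, standardised units) and knockout hearts (right, log units of unstated base; CLP replicate 1 left out). In wild type the intervals of Nr1d1 and Cry1 against sham exclude 0 in both septic groups, and every Max Dep minus Min Dep interval includes 0. In knockout hearts the intervals of Nr1d1, Per1, Per2, Cry2, Tef and Hlf lie below 0. None of these has an adjusted p below 0.05.

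Set side by side within each genotype, Nr1d1 and Cry2 were lower after CLP without overlap in both tables. Of all genes 6.11% were so in wild type and 14.0% in knockout hearts, and the share in both was not computed. Cry1 was higher without overlap in wild type and overlapped in knockout hearts. Per1 and Per2 overlapped in wild type and did not in knockout hearts. Whether the response of a gene differed between genotypes was not tested, since genotype, table and array model cannot be told apart.

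Arrays of a group also differed from each other in the clock genes. The mean of the 10 members ran from -0.21 to 0.61 in Max Dep hearts, from -1.06 to -0.08 in Min Dep hearts and from -0.04 to 0.89 in sham hearts of wild type. In knockout hearts it ran from -1.78 to -0.96 in CLP hearts and from -0.36 to 2.37 in sham hearts. Arntl, which encodes BMAL1, was at 2.39 in wild-type Min Dep replicate 2, against -1.58 to 0.29 in the other 8 arrays. Nfil3 was also at 2.39 in that array, where Dbp, Nr1d2, Cry2 and Tef had their lowest values. In knockout hearts Arntl was at 4.29 in sham replicate 2, against -0.92 to 0.87 in the other arrays, and Clock at 1.80 and Nfil3 at 2.65 were also highest there. Nr1d2, Per1, Per2, Per3, Cry2, Dbp, Tef and Hlf had their lowest sham value in that array, with Dbp at -0.85 and Per3 at -1.29. The output factors in CLP replicate 2 of the knockout were lower still, with Dbp at -3.88.

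**Figure D5:**
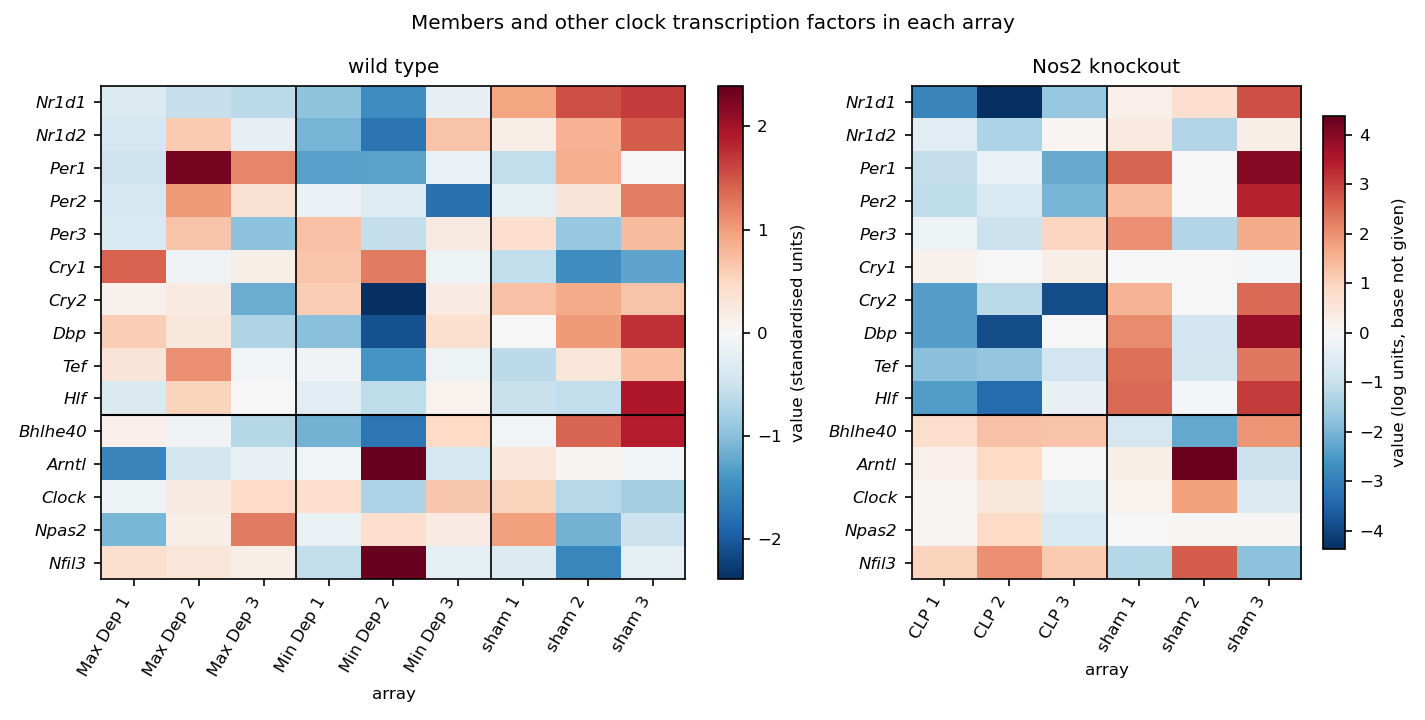
Colour map of the 10 clock genes (above the line) and 5 other transcription factors of the clock (below it) in every array, wild type on the left in standardised units and knockout on the right in log units of unstated base. In Min Dep 2 of wild type the cells of Arntl and Nfil3 are dark red. In sham 2 of the knockout the cell of Arntl is dark red and that of Nfil3 is paler.

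The remaining genes of the clock were examined as lists. Of 11 transcription factors of the positive limb and interlocking loops, 9 were measured, and 0 passed in any of the 5 comparisons. Arntl differed by -0.15 ± 0.70, Clock by 0.45 ± 0.44 and Nfil3 by 1.10 ± 0.73 after CLP in wild type. Bhlhe40, a repressor that competes at E-boxes, differed by -1.58 ± 0.65 there (adjusted p = 0.27, limma) and by 1.61 ± 1.14 in knockout hearts. Of 13 kinases, ubiquitin ligases and partners of the clock proteins, 8 were measured. Btrc, a ubiquitin ligase subunit that marks phosphorylated period proteins for destruction, fell after CLP in wild type by 0.92 ± 0.10 (adjusted p = 0.0307, limma). It was at -1.10, -0.99 and -1.02 in Max Dep hearts, at 0.30, 0.29 and 0.56 in Min Dep hearts and at 0.43, 0.60 and 0.77 in sham hearts. Against sham it fell in Max Dep hearts by 1.63 ± 0.11 (adjusted p = 0.0209, limma) and differed by -0.21 ± 0.11 in Min Dep hearts (adjusted p = 0.409, limma). Max Dep differed from Min Dep hearts by -1.42 ± 0.11 (adjusted p = 0.0852, limma). Csnk1e, a casein kinase that phosphorylates period proteins, was at -2.66 (not tested), -2.85 and -2.95 in knockout CLP hearts and at 1.28, 1.03 and 1.30 in sham hearts. That difference was -4.10 ± 0.40 log units (adjusted p = 0.082, limma). Over all 6 arrays it was -4.03 (adjusted p = 0.00893, limma), but these include CLP replicate 1, which followed the other columns. In wild type Csnk1e differed by -0.33 ± 0.55.

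Of 13 clock-controlled outputs common to many tissues, 11 were measured, and 1 fell after CLP in wild type, against 0.718% of genes called in either direction. Noct, the gene of the rhythmic enzyme nocturnin, was at 0.27, 0.46 and 0.22 in Max Dep hearts, at -1.43, -1.25 and -1.43 in Min Dep hearts and at 1.12, 1.56 and 0.63 in sham hearts. The 3 groups did not overlap, with Min Dep lowest and sham highest. Its CLP difference was -1.63 ± 0.20 (adjusted p = 0.0395, limma), and Min Dep hearts differed from sham by -2.47 ± 0.23 (adjusted p = 0.0542, limma). In knockout hearts Noct differed by 0.96 ± 0.80. Over 12 alternative settings, Btrc and Noct each passed in 2 for CLP against sham, and neither passed with moderated statistics. Klf9 was at -0.37, 0.93 and 0.36 in Max Dep hearts, at -0.40, -1.55 and -0.82 in Min Dep hearts and at 0.45, 1.01 and 0.42 in sham hearts, and differed by -2.20 ± 0.59 in knockout hearts (adjusted p = 0.208, limma). The median CLP difference of the 11 outputs was -0.75 in wild type and -0.37 in knockout hearts, against 0.02 and 0.03 for all genes.

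To describe which genes ran along with the clock outputs, the 9 members that correlated positively with Dbp over the 9 wild-type arrays were averaged. Nr1d2 (r = 0.91) and Nr1d1 (r = 0.83) followed Dbp most closely, Per3 (0.26) and Per2 (0.28) least, and Cry1 ran opposite (r = -0.68). Of 12384 other genes, those most like the average were Adtrp (r = 0.95), Cyp4a31 (0.95), Oxld1 (0.94), Dolk (0.94) and Pdlim5 (0.93). Those most opposite were Cldn5 (r = -0.95), Incenp (-0.94), 1700001C19Rik (-0.92), Mboat2 (-0.92) and Mvd (-0.91). None of these 10 kept an r of the same sign and above 0.5 in size over the 6 knockout arrays, where Adtrp was at -0.68 and Dolk at 0.50. Among the listed clock genes Klf15 ranked 18th (r = 0.87, and 0.12 in knockout hearts) and Bhlhe40 19th (r = 0.87, and -0.01 in knockout hearts). Klf9 ranked 49th, at 0.80 in wild type and 0.84 in knockout hearts. Nfil3 ran opposite in both, at -0.64 and -0.85. These correlations share the same few arrays and their scaling, and describe these arrays only. The knockout values of r include CLP replicate 1, which followed the other columns.

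Whole hearts hold several cell types, and in such samples fewer cells of a type and less RNA per cell cannot be told apart. No levels were given, so the defining markers of heart could not be checked as present or absent, and only their differences are known. Mean values of 9 cardiomyocyte markers ran from -0.70 to 0.51 in septic and from 0.12 to 0.49 in sham wild-type hearts. In knockout hearts they were at -0.50 (replicate 1), -1.56 and 0.79 after CLP and ran from 0.27 to 0.79 after sham surgery. Knockout CLP replicate 2, at -1.56, held the lowest value of 6 of the 9 markers. The mean of 10 macrophage markers separated the groups, at 0.06 to 1.11 in septic and -1.40 to -0.66 in sham wild-type hearts, and at 1.57 to 2.67 in CLP and -0.63 to 0.08 in sham knockout hearts. Neutrophil markers (9 genes) did so too, at -0.15 to 1.12 in septic and -1.16 to -0.79 in sham wild-type hearts, and at 1.42 to 2.95 in CLP and -0.53 to 0.05 in sham knockout hearts. The 7 fibroblast markers lay at -1.74 to 0.20 in septic and 0.90 to 1.18 in sham wild-type hearts, and at -1.51 to -0.11 in CLP and 0.22 to 0.98 in sham knockout hearts. In wild type 2 of the 10 macrophage and 2 of the 9 neutrophil markers rose after CLP (limma), against 0.718% of genes called in either direction. Higher without overlap were 7 of 10 macrophage and 5 of 9 neutrophil markers, against 5.89% of genes. Lower without overlap were 4 of 7 fibroblast markers, against 6.11%. Thus the means of these lists separated septic from sham wild-type hearts as Nr1d1, Cry1 and Cry2 did. The part of these cell types in those differences was not tested. The 7 measured adipocyte markers lay at -1.29 to -0.01 in septic and at -0.22, 1.42 and 1.37 in sham wild-type hearts. In knockout hearts they lay at -1.63 to -0.90 in CLP and -0.36 to 1.23 in sham hearts. In the knockout table the macrophage, neutrophil, fibroblast and adipocyte means all separated CLP from sham hearts, as 6 of the clock genes did. Single markers did not all follow these means. Of the 7 adipocyte markers 4 had a difference below 0 and 3 above, from -5.56 for Fabp4 to 0.55 for Adipoq. Of the 7 fibroblast markers 5 were below 0 and 2 above. Above 0 were 9 of 10 macrophage and 8 of 9 neutrophil markers. The part of these cell types in the clock differences was not tested.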

How the data were processed

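Total RNA of 15 whole mouse hearts was measured on short oligonucleotide arrays, 1 per heart, and groups were taken from the sample titles. The deposited values are scores in 2 tables of 22690 probe sets. In the wild-type table (9 arrays) each probe set has an SD of 1.0 once the scaling of each array is undone. The knockout table (6 arrays, another array model) behaves as centred log differences. How the authors made the values is not stated in the labels used here, and no signal over background was given. After removal of 64 control probe sets, the array annotation paired 20380 of 22626 with 1 gene, 691 with several and 1555 with none. Probe sets of a gene were averaged, giving 12393 genes.

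Linear models were fitted with limma 3.58.1 (R 4.3.3). The 9 wild-type arrays shared a fit, p-values were adjusted by Benjamini-Hochberg over all genes, and the threshold was 0.05. Wild-type statistics were unmoderated, because rows of equal SD distort moderation, and knockout statistics used eBayes with CLP replicate 1 left out. The scripts were tested on simulated data. Alternatives were every probe set on its own, the other moderation, undone or centred array scaling, only the arrays compared, a 5′ minus 3′ covariate, all 6 knockout arrays and each array left out. The members, the other clock and marker lists and the tests were chosen with earlier results of these data known. All members were named, with those of other lists that passed and up to 4 more per list, and the 5 genes most and least like the members' profile. Genes that a list holds but no single-gene probe set measures were not used. Tables and figures were made with Python, pandas 2.3.3 and matplotlib 3.10.9.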

Additional observations from a re-analysis of the deposited data

Results flagged for a closer look

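One probe set of Per2, 1417602_at, differed from sham in opposite directions in the septic groups: it was higher in Max Dep and lower in Min Dep hearts as group means, at 0.78 ± 0.63 and -1.49 ± 0.63 (SE). The direct test of Max Dep against Min Dep gave 2.27 ± 0.63 standardised units, with an unadjusted p of 0.0112 and an adjusted p of 0.413 over 22626 probe sets (limma). All 3 Max Dep arrays were above all 3 Min Dep arrays, as in 9.07% of probe sets. The other Per2 probe set, 1417603_at, gave -0.14 ± 0.94.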

How the results depend on the processing

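No member was called in any comparison as fitted, and that count became 1 (Nr1d1, CLP against sham in wild type) with every probe set tested and with array scaling undone; the cause was not tested. All other alternatives run gave 0, leaving out each array included. Nr1d1 and Dbp kept their sign in every comparison and alternative. Of 600 recomputed member differences, 42 changed sign, 557 kept sign and side of the threshold and 1 newly passed. With the 5′ minus 3′ covariate, signs turned for CLP against sham in Per1 (0.23), Per2 (0.16), Per3 (0.83), Tef (0.46) and Hlf (0.50), for Max Dep against sham in Per2 (0.84), Per3 (0.85) and Hlf (0.83), for Min Dep against sham in Hlf (0.17), and for Max Dep against Min Dep in Per3 (0.032). With array scaling undone Cry2 turned to -0.038 for Max Dep against Min Dep. Leaving out 1 array gave ranges that crossed 0. For CLP against sham these were -0.40 to 0.33 (Per1), -0.64 to 0.19 (Per3), -0.56 to 0.12 (Tef) and -0.80 to 0.46 (Hlf). For Max Dep against sham they were -0.46 to 0.29 (Per2), -0.81 to 0.067 (Per3), -0.066 to 0.61 (Tef) and -0.64 to 0.62 (Hlf). For Min Dep against sham they were -0.47 to 0.37 (Per3) and -0.96 to 0.30 (Hlf). For Max Dep against Min Dep they were -0.79 to 0.039 (Per3), -0.57 to 0.21 (Cry1) and -0.68 to 0.81 (Cry2). In knockout hearts they were -1.15 to 0.28 (Nr1d2), -1.81 to 0.16 (Per3) and -0.019 to 0.30 (Cry1). No paired analysis was possible because the labels carry no replicate numbers that join arrays of different groups.

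Each group holds 3 arrays. Moderated statistics called no wild-type gene in any comparison, so each wild-type call rests on the unmoderated test. Standardised values hide absolute size, probe sets near background were not removed, and genotype, table and array model cannot be told apart.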
